A study of Mus musculus with 8 samples.

Results

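Lysosomal cathepsins are the proteases that break down protein inside the lysosome. The 10 genes described here were taken by name from the deposited table: Ctsl, Ctss, Ctsf, Ctso, Ctsb, Ctsc, Ctsh, Ctsz, Ctsd and Ctsa. The cathepsins typical of osteoclasts and neutrophils were left out of the list, and Ctse and Ctsw are not on it either. All 10 names were found among the 20681 rows of the table, and all 10 passed the filter on low values, which 14949 rows passed.

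The RNA came from mouse knee joints, with 4 libraries in each of 2 groups, control and Loxl2 knockout. Loxl2 encodes lysyl oxidase-like 2, an enzyme that crosslinks collagen. The series text describes all 8 joints as coming from Acan-Cre;Loxl2 fl/fl mice, in which a Cre recombinase under the aggrecan gene acts on Loxl2 alleles flanked by loxP sites. It calls 4 of them vehicle-treated controls and 4 conditional knockouts. What treatment the second group had is not given in the sources used here, nor is how controls with the same alleles came to be wild type, as their library names say. The library names add Vehicle, DMM and LOXL2wt for the controls and KO, DMM and LOXL2ko for the other group. The labels do not spell out DMM, commonly short for a surgery that destabilises the medial meniscus of the knee. Age, sex and any pooling of animals are not given in the sources used here. The Cre is active in cells that express Acan, mainly cartilage cells, while a joint also holds muscle, bone, marrow, synovium and fat.

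Cathepsins are made as inactive proenzymes, tagged with mannose 6-phosphate in the Golgi and carried by receptors to the lysosome, where acid and other proteases remove the propeptide. Most are cysteine proteases of the papain family, whereas cathepsin D is an aspartic protease and cathepsin A a serine carboxypeptidase. Macrophages, osteoclasts and synovial fibroblasts are known as rich sources in joints, and cystatins inhibit the cysteine cathepsins outside and inside the cell.

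The libraries held 13991000 to 17411617 reads assigned to genes. Loxl2 itself went against the labels: its normalised read count was 282, 349, 1135 and 311 in the control libraries, in replicate order, against 893, 1468, 960 and 1518 in those labelled knockout. The log2 difference was 1.44 (SE 0.40, limma adjusted p = 0.0294, exact permutation p = 0.0857). That call was lost under 9 of 19 alternative settings, among them edgeR (0.0669) and DESeq2 (0.0659) and leaving out any 1 of control replicates 1, 2 and 4 and knockout replicates 2 and 4 (0.0663 to 0.0847). The groups are therefore called by their labels throughout. Nothing in the labels says that the 8 samples came from separate animals, so p-values measure the spread between these samples. Markers of skeletal muscle, 10 genes, held 10.5% to 11.2% of the summed values in the control libraries and 6.43% to 8.77% in the libraries labelled knockout. A list of 8 cartilage genes held 0.0182% to 0.0484% and 0.0531% to 0.0933%, of which Comp made up 52.4% to 89.5%. Acan itself had 52.3 to 544 normalised reads in the control libraries and 184 to 372 in the libraries labelled knockout, which overlap.

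Short stretches near a RefSeq start of 6 of these genes are shown because they hold letters known as binding motifs of factors of the lysosome or of myeloid cells. Transcription factors of the MiT/TFE family (Tfeb, Tfe3 and relatives) bind CACGTG in the promoters of many lysosomal genes. The myeloid factor PU.1 binds sites such as GAGGAAGT. The sequences are from RefSeq on GRCm38.p6, 5′ to 3′ on the strand of the gene, with the match in capitals (read from the other strand as ACTTCCTC for the last 2).
Ctsd, chr7:142387908-142387937, minus strand: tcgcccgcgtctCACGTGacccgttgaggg
Ctsa, chr2:164833749-164833778, plus strand: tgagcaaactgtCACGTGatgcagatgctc
Ctsl, chr13:64370739-64370768, minus strand: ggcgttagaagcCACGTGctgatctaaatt
Ctsf, chr19:4855074-4855103, plus strand: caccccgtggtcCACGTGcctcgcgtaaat
Ctss, chr3:95526773-95526802, plus strand: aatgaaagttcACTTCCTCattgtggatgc
Ctsc, chr7:88277923-88277952, plus strand: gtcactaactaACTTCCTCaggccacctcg

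The windows searched ran from 250 bases before to 50 bases after each annotated start, on both strands, and 9 windows were found for 8 of the members. CACGTG was present in 4 of the 9 windows (of Ctsa, Ctsd, Ctsf and Ctsl), against 7.15% of all 32851 windows of the table. Its longer form TCACGTGA, which contains it, was present for Ctsa and Ctsd, against 0.974% of all windows. Ctsa had 2 matches, both at the second of its 2 annotated starts, and Ctsd had 2, of which the one nearer to its RefSeq start is shown. For Ctsd and Ctsl the gene spans of GENCODE release M21, given below, reach further upstream, to 142388038 and 64370890. The stretches shown for these genes lie inside those spans, so the annotations differ on their starts. GAGGAAGT was present for Ctss and Ctsc, against 3.2% of all windows, and in Ctss it spans the start itself. Also searched were GGGCGG, present in 6 of the 9 windows (35.7% of all windows), and TATAAA, in 1 of the 9 (13.6%). A match is a run of letters and was not tested as a binding site. The 4 genes with CACGTG included 2 whose level passed the test described next (Ctsa and Ctsl) and 2 whose level did not (Ctsd and Ctsf).

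The comparison asked whether the level of each cathepsin differed between the groups. The level of 6 of the 10 genes was higher in the libraries labelled knockout at an adjusted p under 0.05, and none was called lower by limma, edgeR or DESeq2, nor below the control level at an unadjusted p under 0.05. Those 6 were Ctss, Ctsz, Ctsh, Ctso, Ctsa and Ctsl. Of all 14949 genes tested, 23.2% were called, 11.6% higher and 11.6% lower. By tool, limma called 3461 of them, edgeR 3324 and DESeq2 4125, and 5741 had an unadjusted limma p under 0.05. Levels are normalised read counts (mean ± SD, n = 4 per group). Differences are on the log2(value + 1) scale, knockout minus control, with the standard error (SE) of the limma fit and p-values adjusted over all genes tested by the Benjamini-Hochberg method. The median difference was 0.35 over the 10 members and 0.00 over all genes tested. The highest of the 10 differences was 1.72 and the lowest 0.15. In such bulk RNA, a change in the number of cells of a type and in the RNA per cell cannot be told apart. The summed normalised read count of 12 macrophage markers was 2961 to 6867 in the control libraries and 10181 to 14549 in the libraries labelled knockout, and its part in the cathepsin differences was not tested.

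**Figure D1:**
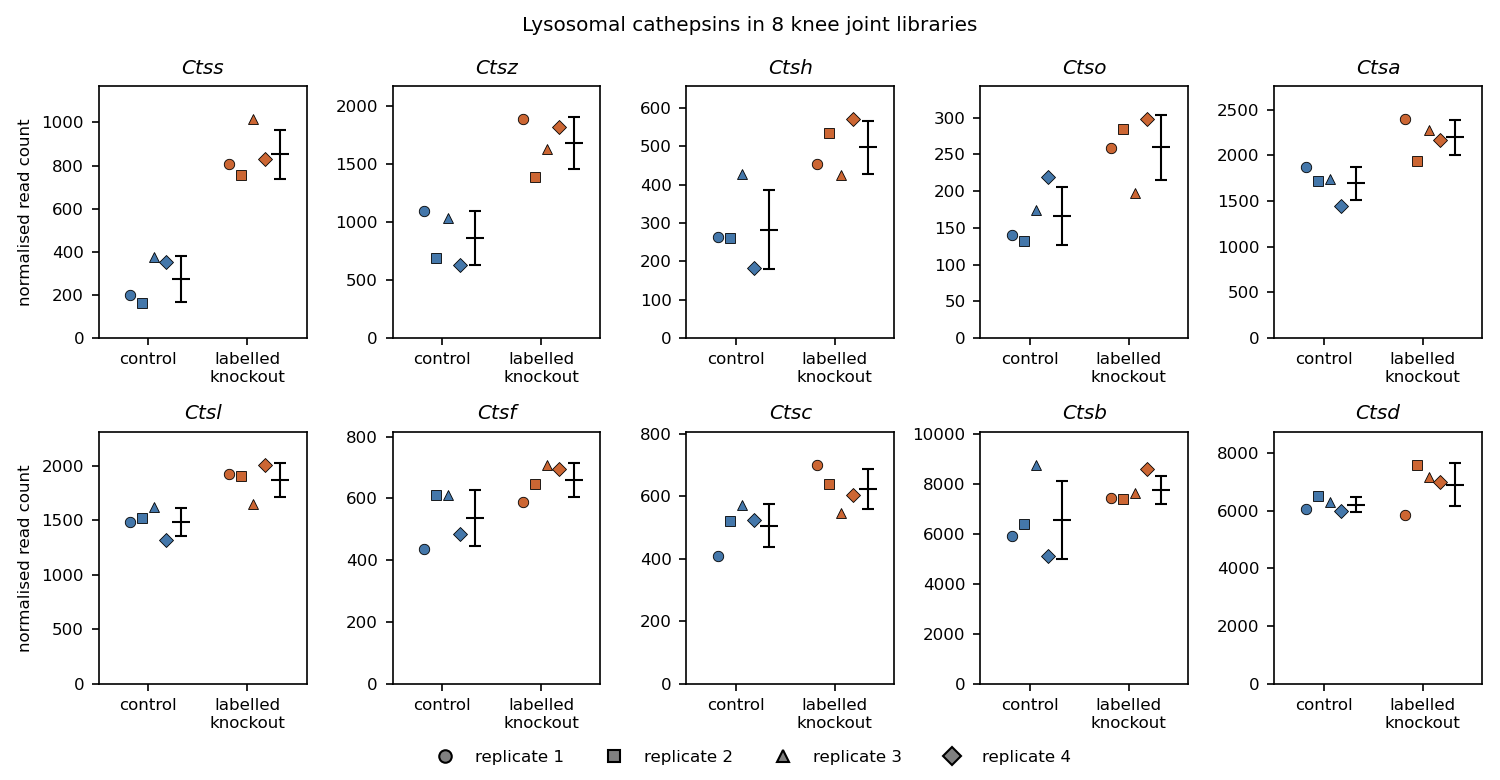
Normalised read count (y axis, from 0) of each of the 10 cathepsins in the 4 control libraries and the 4 libraries labelled knockout (x axis), with the mean and SD beside the points and a symbol per replicate number. For Ctss the highest control library held 377 and the lowest library labelled knockout 756, whereas the points of Ctsd and Ctsb overlap between the groups.

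The cysteine endopeptidases were led by Ctss, a protease that stays active at neutral pH and cleaves the invariant chain of class II molecules in antigen-presenting cells. The normalised read count of Ctss was 201, 163, 377 and 353 in the control libraries and 807, 756, 1017 and 832 in the libraries labelled knockout. The groups did not overlap, as for 11.7% of all genes tested in that direction, and the control libraries fell into a lower and a higher pair. The means were 273 ± 107 and 853 ± 114, and the log2 difference was 1.72 (SE 0.25, limma adjusted p = 0.00438, exact permutation p = 0.0286). On that scale this was a fold of 3.29, with a 95% interval of 2.22 to 4.87. The exact two-sided test has 70 assignments, so that 0.0286 is the smallest p it can give.

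Ctsl, a broad endopeptidase of the lysosome, had a normalised read count of 1485, 1518, 1621 and 1318 in the control libraries and 1921, 1910, 1646 and 2010 in the libraries labelled knockout. The groups did not overlap, but only 1621 in control replicate 3 and 1646 in knockout replicate 3 kept them apart. The difference was 0.33 (SE 0.09, limma adjusted p = 0.0299, exact permutation p = 0.0286), a fold of 1.26.

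Ctso, with the lowest mean read count of the 10 in both groups, had a normalised read count of 141, 132, 175 and 219 in the control libraries and 259, 284, 198 and 298 in the libraries labelled knockout. Knockout replicate 3 lay below control replicate 4. The difference was 0.65 (SE 0.19, limma adjusted p = 0.0345, exact permutation p = 0.0571).

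Ctsf, whose propeptide carries a cystatin-like domain, had a normalised read count of 435, 612, 612 and 484 in the control libraries and 588, 648, 709 and 695 in the libraries labelled knockout. Knockout replicate 1 lay below 2 control libraries. The difference of 0.31 did not pass (SE 0.13, limma adjusted p = 0.102, exact permutation p = 0.0857), with a 95% interval from 0.03 to 0.60 before adjustment.

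Among the cysteine exopeptidases, Ctsz and Ctsh were higher in the libraries labelled knockout. Ctsz encodes a carboxypeptidase, also called cathepsin X. Its normalised read count was 1091, 684, 1034 and 632 in the control libraries and 1886, 1384, 1628 and 1814 in the libraries labelled knockout. The groups did not overlap. The means were 860 ± 236 and 1678 ± 224, and the log2 difference was 0.99 (SE 0.19, limma adjusted p = 0.00795, exact permutation p = 0.0286), a fold of 1.99 (95% interval 1.49 to 2.66).

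Ctsh, an aminopeptidase, had a normalised read count of 263, 259, 426 and 182 in the control libraries and 455, 535, 425 and 571 in the libraries labelled knockout. Control replicate 3 lay just above knockout replicate 3, which alone made the groups overlap. The difference was 0.87 (SE 0.22, limma adjusted p = 0.0227, exact permutation p = 0.0571).

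Ctsb encodes a carboxydipeptidase that is abundant in many cells. Its normalised read count was 5905, 6387, 8763 and 5124 in the control libraries and 7425, 7397, 7634 and 8591 in the libraries labelled knockout. Control replicate 3 was the highest of all 8 libraries, and the other 3 control libraries lay below every library labelled knockout. The difference was 0.27 (SE 0.15, limma adjusted p = 0.214, exact permutation p = 0.171). Without control replicate 3 it was 0.42 and was called (limma adjusted p = 0.0255).

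Ctsc encodes the dipeptidyl peptidase that activates the serine proteases of neutrophil, mast cell and lymphocyte granules. Its normalised read count was 409, 520, 571 and 524 in the control libraries and 701, 639, 548 and 605 in the libraries labelled knockout. Knockout replicate 3 lay below control replicate 3. The difference of 0.31 was not called (SE 0.12, limma adjusted p = 0.0947, exact permutation p = 0.0571).

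Ctsd encodes the aspartic protease of the lysosome. Its normalised read count was 6051, 6524, 6301 and 5974 in the control libraries and 5851, 7594, 7175 and 7009 in the libraries labelled knockout. Knockout replicate 1 was the lowest of the 8 libraries and the other 3 libraries labelled knockout the highest. The difference was 0.15 (SE 0.10, limma adjusted p = 0.294, exact permutation p = 0.171). Its 95% interval ran from -0.07 to 0.36, a fold of 0.953 to 1.29.

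Ctsa encodes a serine carboxypeptidase that also holds the enzymes of Glb1 and Neu1 in a complex and protects them from breakdown. Its normalised read count was 1871, 1723, 1742 and 1443 in the control libraries and 2399, 1940, 2274 and 2172 in the libraries labelled knockout. The groups did not overlap. The difference was 0.38 (SE 0.10, limma adjusted p = 0.0270, exact permutation p = 0.0286). The partners of its complex were looked up after their values had been seen. Glb1, a beta-galactosidase gene, differed by 1.30 (SE 0.39, limma adjusted p = 0.0376), and its call was lost under 9 of 19 alternatives, among them edgeR (adjusted p = 0.0645) and leaving out any of 6 libraries, control replicates 2, 3 and 4 and knockout replicates 1, 3 and 4 (0.0523 to 0.0975). Neu1, a sialidase gene, had 376 ± 11.3 and 374 ± 27.4 normalised reads, and the sign of its difference of -0.01 (limma adjusted p = 0.949) turned under 7 of 19 alternative settings, among them scaling without the muscle, erythroid and neutrophil markers and the 50 highest genes (0.14).

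**Figure D2:**
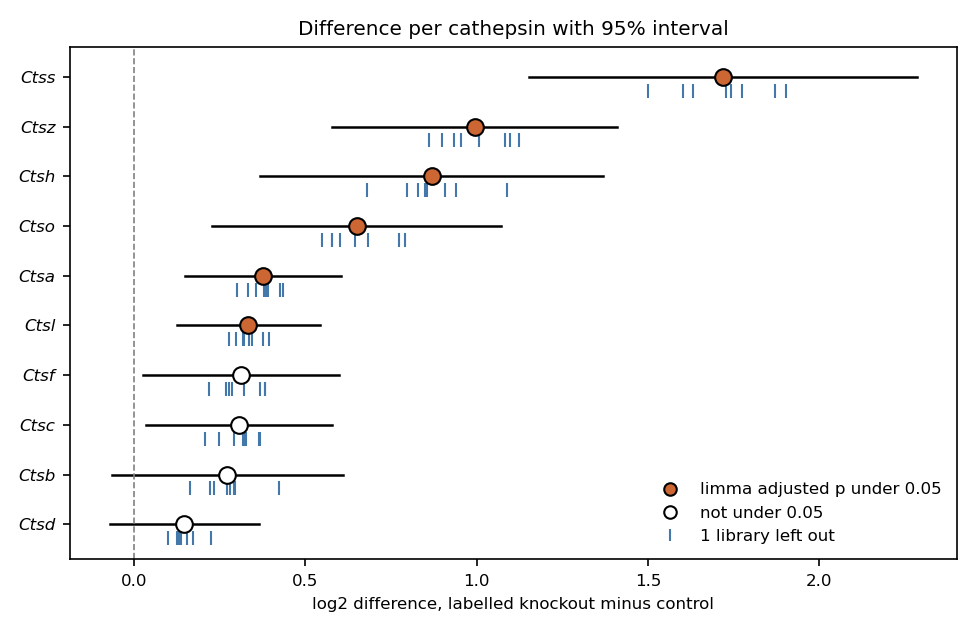
Log2 difference of each cathepsin (x axis, labelled knockout minus control), with the 95% interval of the limma fit as a line, a filled point where the adjusted p was under 0.05, and ticks for the 8 fits that left out a library. The filled points run from 0.33 (Ctsl) to 1.72 (Ctss), and all ticks of all 10 genes lie above 0.

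Among the 6 cathepsins called, Ctss and Ctsz alone kept the call in all 19 alternative settings, with adjusted p-values of at most 0.0164 for Ctss and 0.0287 for Ctsz. The call of Ctsh was lost on leaving out control replicate 2 (limma adjusted p = 0.0588), knockout replicate 2 (0.0574) or knockout replicate 4 (0.0690). The call of Ctsa was lost on leaving out control replicate 2 (0.0607) or 4 (0.0658) or knockout replicate 1 (0.0683) or 4 (0.0634). The call of Ctso was lost on leaving out control replicate 1 (0.0765) or 2 (0.0928) or knockout replicate 1 (0.0707), 2 (0.0850) or 4 (0.0988). The call of Ctsl was lost on leaving out control replicate 1 (0.0565), 2 (0.0642) or 4 (0.0796) or knockout replicate 1 (0.0686), 2 (0.0683) or 4 (0.0833). Without control replicate 2 or knockout replicate 4, 2 of the 10 members were called in place of 6, and without knockout replicate 1 or 2, 3 were. Without the intensity trend of the fit the calls of Ctsl (0.0655), Ctso (0.0560) and Ctsa (0.0598) were lost, and under quantile normalisation that of Ctso (0.0670) was lost while Ctsb (0.0478) and Ctsd (0.0148) were called. The direction did not change: all 10 differences were above 0 in each of the 19 settings. Scaled on genes other than the muscle, erythroid and neutrophil markers and the 50 highest genes, 9 of the 10 were called, all but Ctsb. That scaling moved the median difference of all genes tested by 0.15 and the share of calls that were higher from 50.04% to 77.6%. The difference of Ctsd on that scale was 0.30.

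The libraries did not all rank alike. Control replicate 3, the control library with the highest Loxl2, held the highest control value for 6 of the 10 genes, and control replicate 4 the lowest for 6. Knockout replicate 4 was the highest of its group for 4 genes and the lowest for none. Spread within the control group was smallest for Ctsd, with a coefficient of variation of 4.02%, and largest for Ctss (39.2%) and Ctsh (36.4%). In the group labelled knockout it lay between 7.25% (Ctsb) and 17.1% (Ctso).

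**Figure D3:**
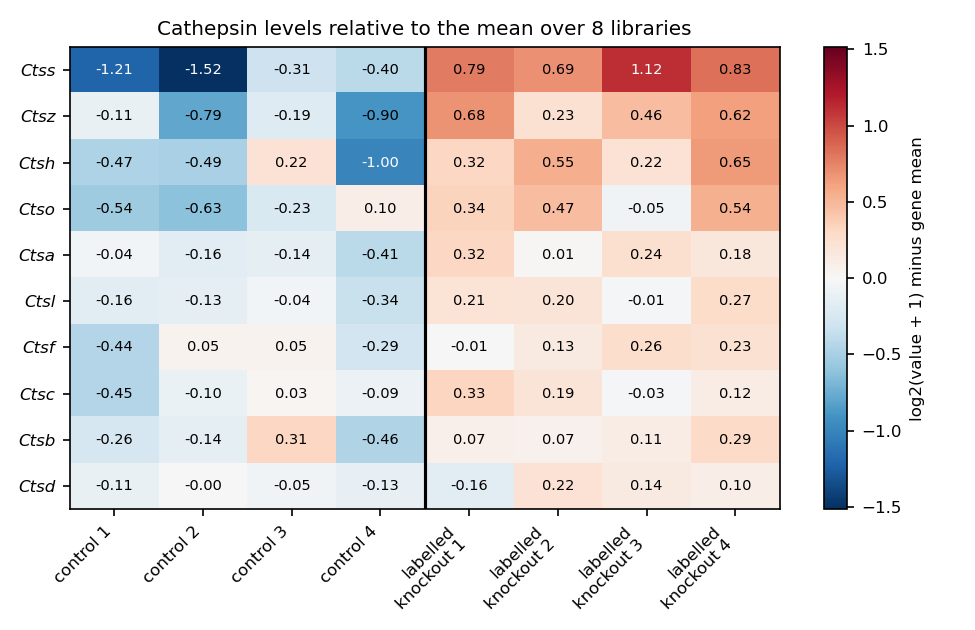
Each cell gives the log2(value + 1) of a cathepsin (rows) in a library (columns) minus that gene's mean over the 8 libraries, red above and blue below the mean. Ctss has its lowest value, -1.52, in control replicate 2 and its highest, 1.12, in knockout replicate 3, whereas Ctsd stays between -0.16 and 0.22.

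Levels between genes were compared per kilobase of the annotated principal transcript. Ctsd was the highest in the control group, with 2921 ± 118 normalised reads per kilobase, followed by Ctsb (1380 ± 331), Ctsl (753.6 ± 63.8), Ctsz (597 ± 164) and Ctsa (465 ± 49.5). Ctsl and Ctsz differed by less than the SD of Ctsz, as did Ctsz and Ctsa. Ctsf (271 ± 45.6) came next, then Ctsc (203 ± 27.6), Ctss (202 ± 79.1) and Ctsh (175 ± 63.6), which differed by less than the SD of Ctss, and Ctso was the lowest (48.1 ± 11.4). In the group labelled knockout Ctsz, at 1164 ± 156 per kilobase, stood above Ctsl (949.6 ± 79.5), and Ctss (629 ± 83.9) lay level with Ctsa (602 ± 53.3). Per kilobase of all annotated exons Ctsz (597 ± 164) stood above Ctsl (229 ± 19.4) in the control group too, so the order of those genes rests on the length used. Ctsd and Ctsb, the highest per kilobase, had the smallest of the 10 differences in the deposited scaling with all libraries. That order changed for Ctsb without control replicate 1 (Ctsc 0.21, Ctsf 0.22 and Ctsb 0.23) or 3 (Ctsb 0.42, above Ctsl at 0.38). It also changed without knockout replicate 1 (Ctsc 0.247, Ctsb 0.293), 2 (Ctsc 0.292, Ctsb 0.294) or 3 (Ctsf 0.278, Ctsb 0.279). Under quantile normalisation both Ctsb (0.56) and Ctsd (0.44) lay above Ctsf (0.34) and Ctsc (0.32).

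The summed normalised read count of the 10 genes was 16252 to 21621 in the control libraries and 22292 to 24597 in the libraries labelled knockout. The sum over all genes was lower in the latter, 13253746 to 15225143 against 16157355 to 17332778. As a share of it the 10 genes held 0.0966% to 0.133% in the control libraries and 0.153% to 0.186% in the libraries labelled knockout. Ctsb and Ctsd made up 67.0% to 69.7% of the reads of the 10 genes in the control libraries and 59.6% to 64.9% in the libraries labelled knockout. The share of Ctss was 0.877% to 2.17% and 3.27% to 4.37%.

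Ratios of 2 genes within a library barely depend on how the library was scaled, and 5 were compared with the exact permutation test. The log2 ratio of Ctss to Ctsl was -2.52 ± 0.63 among the controls and -1.14 ± 0.30 among the libraries labelled knockout, which is 1.39 higher, with separate groups (exact permutation p = 0.0286, 0.0714 adjusted over the 5 ratios). The ratio of Ctss to Cst3, the gene of the secreted inhibitor cystatin C, moved from -4.96 ± 0.45 to -3.42 ± 0.41, a difference of 1.55 (exact permutation p = 0.0286, adjusted 0.0714). Neither passed 0.05 after adjustment. The ratios of Ctsb to Ctsd (difference 0.13, exact permutation p = 0.571), Ctsl to Ctsb (0.06, p = 0.657) and Ctsz to Ctsh (0.13, p = 0.686) differed by less than the spread within the groups. The difference of Ctsl to Ctsb turned to -0.05 without control replicate 3.

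**Figure D4:**
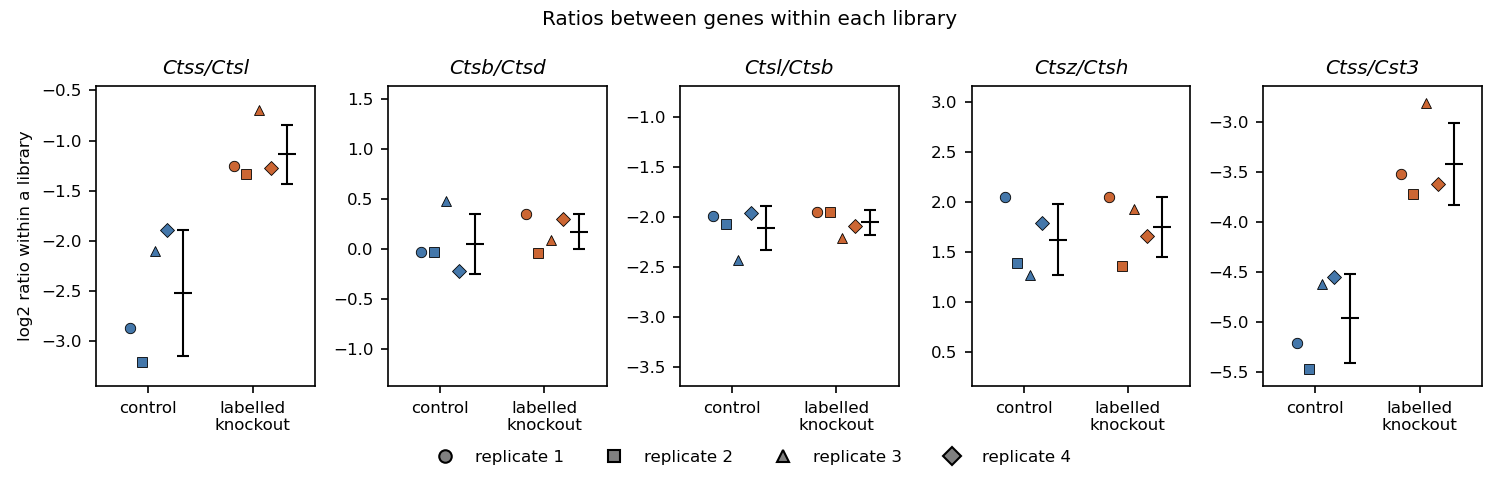
Log2 ratio of the values of 2 genes within each library (y axis, the same span in every panel), with the mean and SD beside the points. The Ctss/Ctsl and Ctss/Cst3 panels show separate groups, with differences of 1.39 and 1.55, and the other 3 panels overlap.

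The nearest relative among the genes left out, the osteoclast cathepsin Ctsk, lies 17.4 kilobases before Ctss on chromosome 3, on the same strand, with no annotated gene between them. Its normalised read count was 4857, 1007, 1857 and 942 in the control libraries and 17744, 5385, 7194 and 14037 in the libraries labelled knockout. The difference was 2.53 (SE 0.53, limma adjusted p = 0.0114, exact permutation p = 0.0286). Control replicate 1 was the highest control library for Ctsk and among the lower pair for Ctss, and knockout replicate 3, highest for Ctss, was not highest for Ctsk. Ctse, Ctsg and Ctsw were not called (limma adjusted p = 0.243, 0.813 and 0.375).

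The genes around the cathepsins were described from lists of their pathway. Of 75 genes on 7 lists that are not members, 66 were tested, 27 were called higher and 3 lower, against 11.6% of all genes tested in each direction. Their median difference was 0.53.

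Inhibitors are the first group. Of 9 listed inhibitor genes 3 were tested and only Cstb, the gene of the intracellular inhibitor cystatin B, was called. Cstb had 160 ± 41.2 and 373 ± 108 normalised reads, a difference of 1.21 (SE 0.23, limma adjusted p = 0.00889, exact permutation p = 0.0286). Cst3 had 8069 ± 934 and 9139 ± 1400 normalised reads (difference 0.17, SE 0.13, limma adjusted p = 0.374). Cst6, of cystatin M, had a difference of -0.32 (limma adjusted p = 0.0916).

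In the sorting and activation group 4 of 9 genes were called higher and 1 lower. Lgmn, the gene of legumain, an asparagine-specific protease that processes cathepsin proenzymes, had 828, 773, 1023 and 968 normalised reads in the control libraries and 1182, 1345, 1352 and 1537 in the libraries labelled knockout. The groups were separate, and the difference was 0.59 (SE 0.11, limma adjusted p = 0.00890, exact permutation p = 0.0286). Grn, the gene of progranulin, rose by 1.07 (SE 0.16, limma adjusted p = 0.00462). Sort1, the gene of the sorting receptor sortilin, fell from 1203 ± 117 to 631 ± 137 normalised reads, -0.95 on the log2 scale (SE 0.16, limma adjusted p = 0.00556). Gnptab and Nagpa, enzyme genes of the mannose 6-phosphate tag, were called with differences of 0.56 and 0.36 (limma adjusted p = 0.0342 and 0.0441). The call of Gnptab was lost under 7 of 19 alternatives and that of Nagpa under 9. Among these, Gnptab was lost without any 1 of control replicates 2, 3 and 4 and knockout replicates 1 and 4 (0.0591 to 0.0982), and Nagpa without any 1 of control replicates 2, 3 and 4 and knockout replicates 1, 2 and 4 (0.0689 to 0.106). The receptor genes of the tag, M6pr and Igf2r, had differences of 0.33 and -0.19 (limma adjusted p = 0.112 and 0.144). M6pr was called without control replicate 1 (0.45, adjusted p = 0.0405) and under the scaling without marker and highest genes (0.48, adjusted p = 0.0457).

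Of 28 other lysosomal hydrolases 17 were called higher and 2 lower, with a median difference of 0.55. Naglu, of an enzyme of heparan sulfate breakdown, rose by 1.09 (limma adjusted p = 0.00561), and Scpep1, of a serine carboxypeptidase related to Ctsa, by 1.27 (limma adjusted p = 0.00765). Gaa, of the glycogen-splitting alpha-glucosidase of the lysosome, fell from 4988 ± 224 to 3082 ± 344, -0.70 on the log2 scale (SE 0.09, limma adjusted p = 0.00397). The second gene called lower was Smpd1, of acid sphingomyelinase (-0.37, limma adjusted p = 0.0244), whose call was lost under 8 of 19 alternatives, among them leaving out any 1 of control replicates 1 and 2 and knockout replicates 1 and 4 (0.0539 to 0.0716) and the scaling without the muscle, erythroid and neutrophil markers and the 50 highest genes (0.116).

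Of 8 membrane genes, Cd63 (0.53, limma adjusted p = 0.0107) and Lamp2 (0.53, limma adjusted p = 0.0398) were called, Lamp2 not under 8 of 19 alternatives, among them those without any 1 of control replicates 1, 2 and 4 and knockout replicates 1, 2 and 4 (0.0747 to 0.108). The differences of the 8 were above 0 for 5 and below for 3, with a median of 0.14. The groups did not overlap for 2 genes in each direction, as for 11.7% (higher) and 13.4% (lower) of all genes tested. Of the 4 MiT/TFE factors only Tfec was called, at 7.80 ± 2.85 and 24.3 ± 11.3 normalised reads (difference 1.44, limma adjusted p = 0.0448), and not under 6 of 14 alternatives, among them those leaving out control replicate 1, 2 or 4 (0.0771 to 0.0985). Tfec reached 10 only in control replicate 3 (11.2) and knockout replicates 1, 2 and 4 (30.9, 21.4 and 35.2). It thus only just met the filter of 4 libraries. Without any 1 of these libraries, or with a filter of 50, it was not tested. Tfeb had a difference of -0.40 (SE 0.14, limma adjusted p = 0.0662), which was called without control replicate 3 (-0.51, adjusted p = 0.0209) and by DESeq2 (0.0414).

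Class II genes, whose invariant chain (Cd74) is a substrate of cathepsin S, had a median difference of 1.68 with 8 of 8 above 0, but 1 was called by limma, 3 by edgeR and 5 by DESeq2. The first was Ifi30, of a thiol reductase of the antigen-processing compartment (1.45, SE 0.25, limma adjusted p = 0.00638). Cd74 had 1061, 374, 487 and 535 normalised reads in the control libraries and 2359, 919, 5410 and 895 in the libraries labelled knockout (difference 1.66, SE 0.55, limma adjusted p = 0.0522). Knockout replicate 3 was the highest library for both Cd74 and Ctss. The highest control library was replicate 1 for Cd74 and replicate 3 for Ctss. Cd74 was called under 8 of 19 alternatives, among them those leaving out control replicate 1 (adjusted p = 0.0401) or knockout replicate 2 (0.0437) or 4 (0.0491), and by edgeR (0.0386) and DESeq2 (0.0187). Of the granule proteases that Ctsc activates, 6 of 9 were tested, with 3 differences above 0 and 3 below. Only Mcpt4, of a mast cell chymase, was called (12.7 ± 7.46 and 37.98 ± 7.73 normalised reads, difference 1.72, limma adjusted p = 0.0293). The lowest difference was that of Elane, a neutrophil elastase gene (-1.77, limma adjusted p = 0.129). The call of Mcpt4 was lost without any 1 of control replicate 2 and knockout replicates 1, 2 and 4 (0.0580 to 0.0752).

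**Figure D5:**
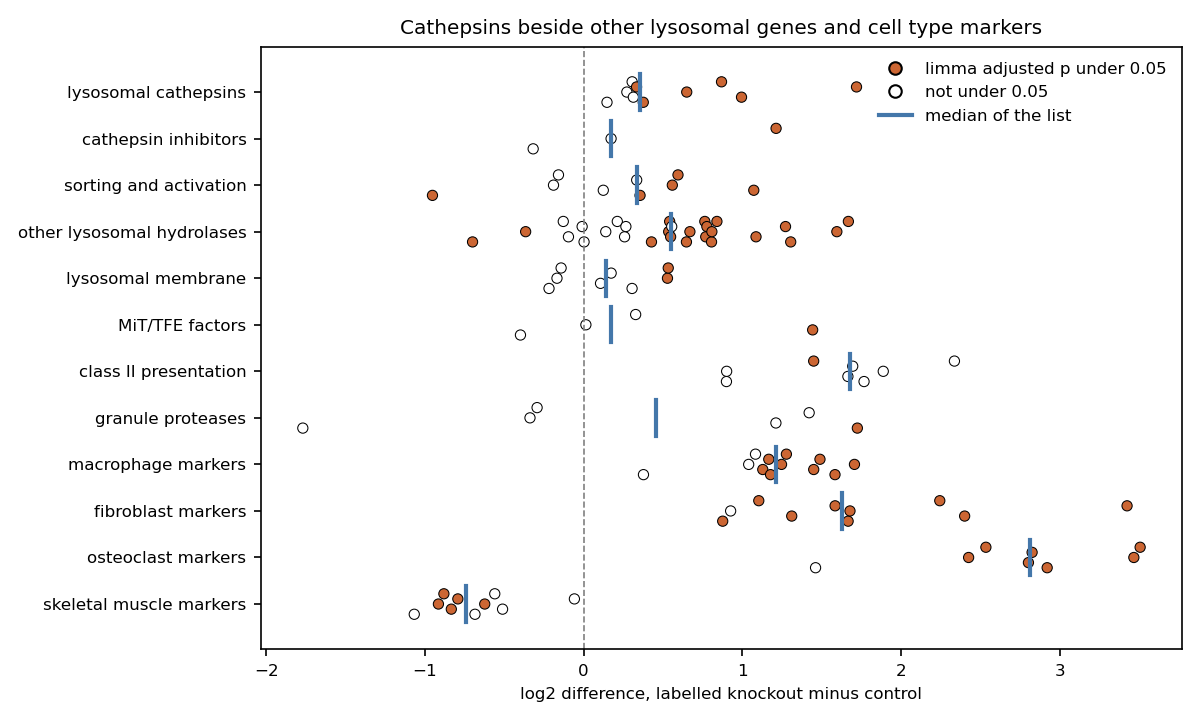
Log2 difference of each tested gene (points; x axis, labelled knockout minus control) in the cathepsin list, 7 pathway lists and 4 lists of cell type markers (rows), filled where the limma adjusted p was under 0.05, with the list's median as a bar. The median was 0.35 for the cathepsins, 1.21 for macrophage markers and -0.74 for skeletal muscle markers.

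Markers of several cell types moved with the groups. Of 12 macrophage markers (Adgre1, Cd68, Csf1r, C1qa and others) 9 were called higher, with a median difference of 1.21 and single values from 0.38 to 1.71. None was at 0 in any library. Lyz2 made up 35.1% to 59.0% of the macrophage sum, and without it the sums were 1500 to 3414 and 5181 to 7074, still separate. With Lyz2 control replicate 3 had the highest sum of the controls, and without it control replicate 4, the lowest control for 6 cathepsins. Control replicate 4 was also the highest control for Ctso. Control replicate 2, the lowest control in both sums, was lowest for Ctss and Ctso and highest for Ctsd. For Ctss the controls ranked as in the sum with Lyz2, replicates 3, 4, 1 and 2 from the highest. The libraries labelled knockout ranked 4, 2, 1 and 3 in that sum and 3, 4, 1 and 2 for Ctss. Of 10 fibroblast markers 9 were called higher (summed 38798 to 120102 and 168888 to 272406), and of 8 osteoclast markers 7 (1868 to 14065 and 10270 to 39329), with none at 0. By edgeR and by DESeq2, 4 osteoclast markers were called. Of 10 skeletal muscle markers 5 were called lower, 9 by edgeR and 9 by DESeq2, and all 10 differences were below 0. Of 8 cartilage markers 1 was called higher (median 0.76, summed 3056 to 7880 and 8082 to 12372), and 1 of the 8 was at 0 in a library. Without Comp the cartilage sums were 491 to 3543 and 1297 to 2289, which overlap. Of 7 tested neutrophil markers none was called by limma, edgeR or DESeq2 and 0 had an unadjusted p under 0.05, and the summed counts of the list overlapped between the groups (1368 to 5507 and 1108 to 2721). Of 7 erythroid markers 0 were called by limma and by edgeR and 1 by DESeq2, with 7 at an unadjusted p under 0.05 (median -1.91). Among all 14949 genes tested, 5741 had such an unadjusted limma p. Of 4 tested B cell markers 0 were called by any of the 3 tools and 0 had an unadjusted p under 0.05. The part of these other markers was not tested either.

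The members lie on mm10 as follows, from GENCODE release M21. Ctsa spans 164832873 to 164841032 and Ctsz 174427493 to 174439039 on chromosome 2. Ctss spans 95526786 to 95556403 and Ctso 81932601 to 81956725 on chromosome 3. Ctsc spans 88278085 to 88310888 and Ctsd 142375911 to 142388038 on chromosome 7. Ctsh spans 90054152 to 90076089 on chromosome 9, Ctsl 64359337 to 64370890 on chromosome 13, Ctsb 63122462 to 63145923 on chromosome 14 and Ctsf 4855130 to 4860918 on chromosome 19. Ctsf, Ctso and Ctsh overlap no other annotated gene. Ctsb lies partly opposite Fdft1, Ctsz opposite Nelfcd, Ctsa opposite Pltp and Neurl2, Ctsc opposite Gm26522 and Ctsl opposite Gm47123. Ctsd shares its strand with Gm49369, Ctss with the pseudogene Hmgb1-ps5 and Ctsl with the pseudogene Gm49230. Whether the counting kept the strands apart is not given in the sources used here, so reads of such partners were not necessarily kept apart.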

How the data were processed

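Messenger RNA from 8 knee joint samples was sequenced. Per the labels, the authors aligned reads to mm10, counted them with featureCounts and normalised with DESeq2, and HISAT2 is named in the submitters' processing notes. Versions, annotation and strand setting are not given in the sources used here. The deposited values are a normalised signal, read counts divided by a size factor: 100% lay within 0.01 of a whole multiple of their library's smallest value, which gave whole reads for edgeR 4.0.16 and DESeq2 1.42.0 as alternatives.

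Genes with at least 10 in at least 4 libraries were tested with limma 3.58.1 (R 4.3.3) on log2(value + 1), with an intensity trend and Benjamini-Hochberg adjustment over all genes tested. The fit was tested on simulated counts of 14700 genes, of which 193 differed, far fewer than the 3461 called in the data. It found 58.4% of log2 differences of 1 and 92.3% of those of 2. Of its 152 calls 4 were false. Smaller differences were not simulated. Of the rows, 99.3% matched GENCODE M21 by symbol. Other alternatives were pseudocounts, filters, scalings, a replicate block and leaving out each library.

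Members and lists were chosen with earlier results of these data known. All members are named, and from each list at most 4 genes of smallest p plus Cst3, Lgmn, Cd74, Tfeb and Ctsk. Glb1, Neu1, Nagpa, Smpd1, M6pr and Igf2r were named after their values were seen. A gene of the hydrolase list that the rule names is not reported here.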

Additional observations from a re-analysis of the deposited data

Results flagged for a closer look

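A library was marked where its gap to the nearest of the others took up more than 0.829 of the range of its group of 4, which chance gives in about 1 of 20 groups. Of 106 groups checked, 6 had such a library. In the control group these were control replicate 3 for Loxl2 (1135 normalised reads) and for Scpep1 (425), control replicate 1 for Elane (175), a neutrophil elastase gene, and control replicate 4 for Cln3 (156), a lysosomal membrane gene. In the group labelled knockout, replicate 3 stood apart for the log2 ratio of Ctss to Ctsl (-0.69) and for Neu1 (415). No cathepsin had such a library for its own level.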

How the results depend on the processing

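Of 190 values of the 10 cathepsins over 19 alternatives, 190 were above 0. With the replicate block, 2 cathepsins (Ctss and Ctsz) and 2018 genes (1117 higher, 901 lower) were called, against 6 and 3461 (1732 and 1729). With the block the adjusted p was 0.0919 for Ctsl, 0.0553 for Ctso, 0.0572 for Ctsh and 0.0522 for Ctsa. The numbers are not stated to pair the samples: the deviations of same-numbered libraries from their group means correlated with r = 0.21, -0.12, -0.23 and -0.06, and only control replicate 1 correlated best with its own number. Without the intensity trend 3 cathepsins were called. Scaling without muscle, erythroid, neutrophil and the highest genes gave 2709 genes higher and 782 lower. Leaving out each library gave 1740 to 3832 genes called, 816 to 1825 higher and 924 to 2007 lower, 2 to 7 cathepsins, 12 to 27 pathway genes higher against 27, and a Ctsl to Ctsb log2 ratio difference of -0.0456 to 0.114. Of the genes not called, 3 turned sign: Mitf (-0.0598 under quantile normalisation, -0.0398 to 0.107 without a library), Ctsg (-0.918 to 0.0394 without a library) and Neu1 (0.14 under the scaling above, 0.00231 in edgeR, -0.0604 to 0.00955 without a library). The cause was not tested. Reads assigned to genes numbered at least 13991000 per library, and with 4 against 4 libraries the exact test cannot go below 0.0286.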

Other observations

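The genes whose pattern over the 8 libraries lay nearest to the mean of the 10 cathepsins were Eif2ak3, Pla2g15, Wwp2, Actr2 and Pigm, out of 11636 genes with a mean of at least 50. The measure was the root-mean-square distance between centred log2 values. It was 0.0583 for Eif2ak3, the gene of a kinase of the unfolded protein response, and 0.0746 for Pla2g15, the gene of a lysosomal phospholipase. Wwp2 (0.0781), Actr2 (0.0783) and Pigm (0.0786) followed, against a median of 0.414 over all candidates. Among the cathepsins themselves the distance from their own mean was 0.162 for Ctsl, the nearest, and 0.654 for Ctss, the farthest.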
